A study of Mus musculus with 9 samples.

Results

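The p53 family genes Trp63 and Trp73 and the p53 inhibitor gene Mdm4 were examined in 9 mouse oral tumors, each measured on 1 Affymetrix expression array. Members were all probe sets that the platform annotation assigns to these symbols, where a probe set is a group of short array probes that measure 1 transcript or several transcripts together. They were 3 of 18193 genes, read by 10 of 34945 probe sets with 1 gene symbol, 4 for Trp63, 2 for Trp73 and 4 for Mdm4. Trp53, the gene altered in these mice, was not analysed here, so whether its transcript fits the labelled deletion and missense genotypes was not examined and the genotypes below stand as labelled. The series describes tumors induced by Ras activation with p53 alterations, and mice aged 1 year gave all tumors. There were 3 groups of 3 tumors. The p53-/- tumors came from mice labelled K-p53-/- with p53 deleted, the p53R172H/- tumors from K-p53R172H/- mice with the R172H missense allele over a deleted allele, and the p53R172H/+ tumors from K-p53R172H/+ mice which carry the missense allele beside a wild-type one. The labels do not name the Ras allele, the promoter or Cre line behind it, or the animal of each tumor, and whether the wild-type allele was kept in p53R172H/+ tumors was not examined. P-values therefore measure the spread between these tumors.

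p53, p63 and p73 are related transcription factors that bind similar DNA elements. p63 is the lineage factor of stratified epithelium, including oral mucosa, and its truncated ΔN forms prevail in basal keratinocytes. p73 acts in multiciliated cells and neurons, and also has full-length and truncated forms made from separate start sites. Mdm4 protein binds the activation domain of p53 and blocks it, and works together with the ubiquitin ligase Mdm2, itself a p53 target. Setting p53R172H/- tumors against p53-/- tumors asks about the missense allele in the absence of a wild-type one. The p53R172H/+ tumors differ from p53-/- tumors by both a missense and a labelled wild-type allele, which cannot be told apart in that comparison or in the one of both groups. Setting the missense groups against each other asks about the second allele.

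The sequence around the internal start site of Trp73 is shown because it held the only match to the p53 consensus among the member start sites with a window in the reference. The consensus was searched on both strands as 2 adjacent half-sites of 10 bases, each with the core C and G kept, and up to 3 mismatches. RefSeq windows (GRCm38.p6) of 250 bases before to 50 after the start were available for 2 start sites of Trp73 and 2 of Mdm4. The 250 bases before the internal Trp73 start, chr4:154097174-154097423 on the minus strand, read 5′ to 3′ with the match in capitals:
Trp73 internal start: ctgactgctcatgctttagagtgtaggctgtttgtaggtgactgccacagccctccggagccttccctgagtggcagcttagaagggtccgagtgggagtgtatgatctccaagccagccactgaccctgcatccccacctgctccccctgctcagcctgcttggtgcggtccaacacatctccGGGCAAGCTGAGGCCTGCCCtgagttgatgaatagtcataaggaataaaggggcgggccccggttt
The match GGGCAAGCTGAGGCCTGCCC had 2 mismatches, lay at chr4:154097220-154097239 and ended 46 bases before the start site. The other Trp73 window and both Mdm4 windows held no match. A match of this kind occurred in 453 of 32851 windows of all genes (1.38%). It describes the letters of the window and is not evidence of binding, and the Trp73 probe sets cannot be assigned to one start site or the other from the annotation.

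The 4 comparisons made with limma called none of the 10 probe sets at an adjusted p under 0.05, and called 0% of all probe sets tested. The comparisons were p53R172H/- with p53-/-, p53R172H/+ with p53-/-, p53R172H/- with p53R172H/+, and both p53R172H groups together with p53-/-. At an unadjusted p under 0.05, members passing were 1 of 10 in p53R172H/- against p53-/- (12.5% of all probe sets), 1 of 10 in p53R172H/+ against p53-/- (9.32%) and 1 of 10 in p53R172H/- against p53R172H/+ (3.84%). For both p53R172H groups against p53-/- it was 2 of 10 (13.6%). Groups did not overlap for 1 of 10 members in each comparison, against 18%, 12.5%, 8.93% and 5.87% of all probe sets in the same order. These shares are near the background and are no result about the members. The members therefore are given as values, and no change is claimed for any of them.

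**Figure D1:**
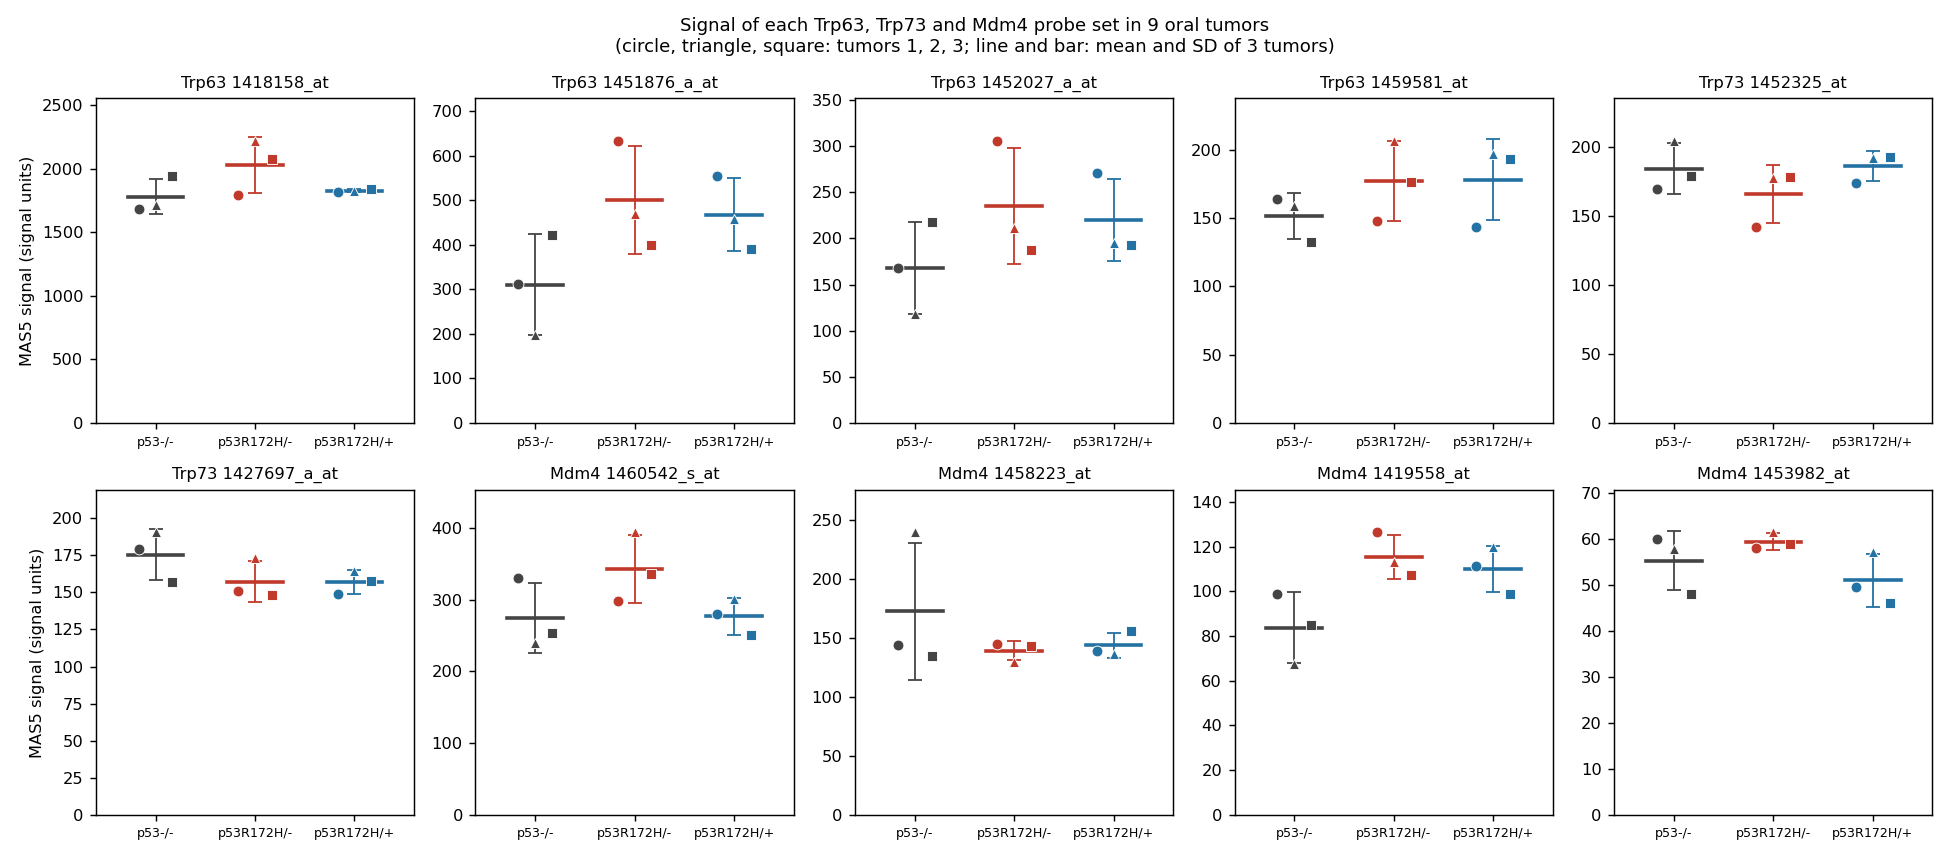
Signal of each Trp63, Trp73 and Mdm4 probe set, in linear MAS5 signal units from 0, in the 3 tumors of each genotype (circle, triangle and square for tumors 1, 2 and 3), with the mean (line) and SD (bar). The only panel in which every p53R172H tumor lies above every p53-/- tumor is Mdm4 1419558_at, where the lowest p53R172H tumor had 98.91 and the highest p53-/- tumor 98.87.

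Trp63 gave a bright and even signal across the tumors on 1418158_at, its brightest probe set. It read 1684, 1715 and 1940 signal units in p53-/- tumors 1, 2 and 3. In p53R172H/- tumors it read 1792, 2220 and 2076. In p53R172H/+ tumors it read 1816, 1823 and 1839. The groups overlapped, and the highest tumor was 1.32-fold above the lowest. Group means were 1779 ± 140 in p53-/-, 2029 ± 218 in p53R172H/- and 1826 ± 11.7 in p53R172H/+ (SD, n = 3 each). The log2 fold change of p53R172H/- over p53-/- was 0.19 ± 0.087 (SE), with a 95% interval of -0.02 to 0.39 and an adjusted p of 0.430 (limma). It was 0.12 without p53R172H/- tumor 2. For both p53R172H groups it was 0.11 ± 0.075 (interval -0.066 to 0.29, adjusted p 0.509), 0.075 without p53-/- tumor 1 and 0.18 without p53-/- tumor 3. The intervals leave room for differences up to these bounds in either direction and do not show that the groups were alike.

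A second pair of Trp63 probe sets varied more. Both carry the suffix _a_at, which Affymetrix gives to probe sets that recognise alternative transcripts of 1 gene. Probe set 1451876_a_at read 311, 197 and 423 in p53-/- tumors, 634, 469 and 399 in p53R172H/- tumors, and 554, 457 and 390 in p53R172H/+ tumors. The lowest values were in p53-/- tumors 2 and 1, and p53-/- tumor 3 lay inside the range of the p53R172H tumors. Both p53R172H groups together were 1.61-fold above p53-/- (log2 0.69 ± 0.27 SE, interval 0.053 to 1.32), with an unadjusted p of 0.0375 and an adjusted p of 0.344 (limma). The exact two-sided permutation test of 6 against 3 tumors gave p = 0.0714, where the smallest possible is 0.0238. Without p53-/- tumor 2 the log2 fold change was 0.39. Probe set 1452027_a_at ran alongside, at 168, 118 and 218 in p53-/-, 306, 211 and 187 in p53R172H/- and 271, 195 and 193 in p53R172H/+ tumors, with a log2 fold change of 0.45 ± 0.25 (adjusted p 0.457), which was 0.22 without p53-/- tumor 2. The remaining one, 1459581_at, ranged from 133 to 207 over all tumors, with 0.22 ± 0.15 (adjusted p 0.530), which was 0.12 without p53-/- tumor 3.

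The pair of _a_at probe sets varied together from tumor to tumor, with Pearson's r = 0.97 and Spearman's rho = 0.93 over 9 tumors (exact permutation p = 0.00011 and 0.00075, adjusted 0.00466 and 0.0405 over 54 relations computed in this family). Without p53-/- tumor 2 and p53R172H/- tumor 1 r was 0.89, and after subtracting group means it was 0.97. Trp63 1418158_at against 1451876_a_at gave r = 0.35 and rho = 0.27 (exact permutation p = 0.343 and 0.493, adjusted 0.518 and 0.761), and 0.53 without p53R172H/- tumors 2 and 3. Both _a_at probe sets also followed the beta-actin 5′ over 3′ ratio, an array control that compares signal at the start and the end of a transcript. For 1418158_at r with this ratio was 0.135. For 1451876_a_at r was 0.91 and rho 0.82 (exact permutation p = 0.000259 and 0.0108, adjusted 0.00466 and 0.194). It was 0.92 without p53-/- tumor 2 and p53R172H/- tumor 1, and 0.84 after subtracting group means. For 1452027_a_at r was 0.94 and rho 0.83 (exact permutation p = 0.000209 and 0.00827, adjusted 0.00466 and 0.194), 0.91 without that pair and 0.92 after subtracting group means. Against the Gapdh 5′ over 3′ ratio, a second such control, r was 0.88 for 1452027_a_at and 0.80 for 1451876_a_at. Adjusted p was 0.0362 and 0.0856 (exact permutation). Without that pair of tumors r was 0.65 and 0.41. The beta-actin log2 ratio was -0.75 to -0.59 in p53-/-, -0.65 to -0.39 in p53R172H/- and -0.57 to -0.45 in p53R172H/+ tumors. With this ratio as a covariate, added after the values were seen, the log2 fold change of both p53R172H groups over p53-/- was 0.15 ± 0.21 for 1451876_a_at and -0.08 for 1452027_a_at. It was larger than without the covariate for the other Trp63 probe sets, at 0.51 ± 0.14 for 1459581_at (unadjusted p 0.00965, adjusted p 1, limma) and 0.16 for 1418158_at. The part of the ratio in the difference was not otherwise tested.

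**Figure D2:**
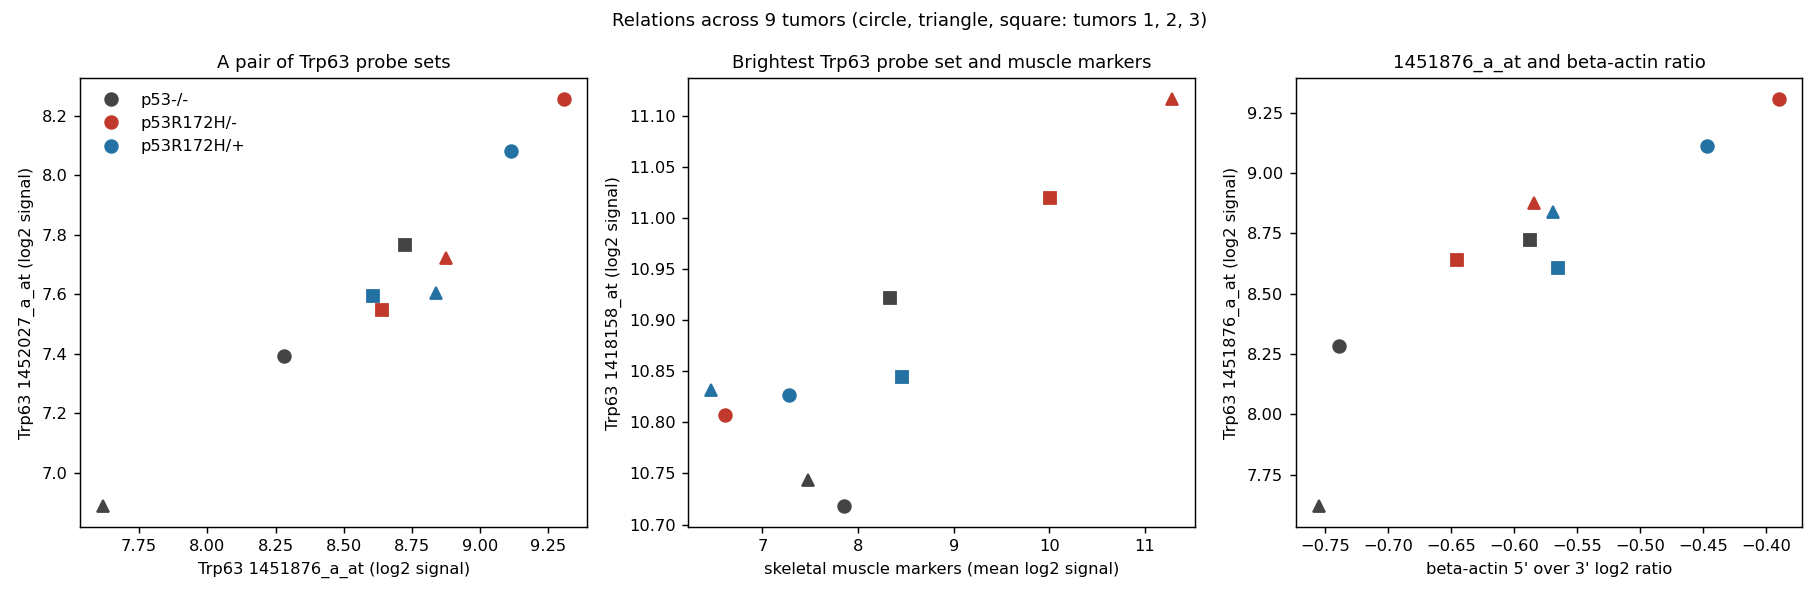
Relations over 9 tumors on log2 scales, colored by genotype, with circles, triangles and squares for tumors 1, 2 and 3. Left, Trp63 1452027_a_at against 1451876_a_at (r = 0.97); middle, Trp63 1418158_at against the mean of 12 skeletal muscle markers (r = 0.85); right, Trp63 1451876_a_at against the beta-actin 5′ over 3′ log2 ratio (r = 0.91). The middle relation rests on p53R172H/- tumors 2 and 3, at the right of the panel.

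Markers of keratinocytes and of other cell types were read in each tumor. None of the keratinocyte, fibroblast or endothelial markers measured was at the floor in any tumor, so this alone does not identify the tissue. Keratinocyte markers included Krt5, Krt14 and Dsp. They averaged 12.62 to 12.75 on the log2 scale in p53-/-, 12.74 to 12.82 in p53R172H/- and 12.67 to 12.80 in p53R172H/+ tumors. Skeletal muscle markers ranged from 7.47 to 8.33 in p53-/-, from 6.61 to 11.28 in p53R172H/- and from 6.46 to 8.46 in p53R172H/+ tumors. On average 12 of 12 were higher in p53R172H/- than in p53-/-, beside 7912 of all 18193 genes. Of these markers 0 had an unadjusted p under 0.05 (limma). In p53R172H/- tumor 1 the muscle mean, 6.61, lay below that of every p53-/- tumor, so the difference rests on p53R172H/- tumors 2 and 3. Trp63 1418158_at was highest in the same p53R172H/- tumors, 2 and 3, in which muscle markers were highest. Over 9 tumors r was 0.85 and rho 0.67 (exact permutation p = 0.0111 and 0.0589, adjusted 0.0856 and 0.398), and without those tumors r was 0.23. Against the other marker lists r was 0.59 (endothelial), 0.54 (keratinocyte), 0.53 (leukocyte), 0.07 (fibroblast) and -0.48 (salivary gland). The lowest adjusted p of these was 0.245 (exact permutation). In bulk tumors fewer cells of a type and less RNA per cell cannot be told apart. Salivary gland markers were 7.12 to 7.19 in p53-/- and 6.94 to 7.08 in p53R172H tumors. Amy1 was at the floor of the scale in all 9 tumors and Smr3a in 8. Aqp5 (739 to 2555 signal units), Lpo (269 to 420), Bhlha15, Pip and Dcpp1 were at the floor in 0. Fibroblast markers were 9.96 to 10.82 in p53-/-, 9.65 to 10.38 in p53R172H/- and 10.45 to 10.65 in p53R172H/+ tumors. Leukocyte markers were 7.88 to 8.56, 8.01 to 8.75 and 8.48 to 8.75 in the same order, and endothelial markers 7.53 to 8.02, 7.53 to 7.98 and 7.79 to 8.01. With the keratinocyte markers as a covariate the log2 fold change of Trp63 1418158_at for both p53R172H groups over p53-/- was 0.078 ± 0.093 (SE), and with the muscle markers 0.085 ± 0.047. For p53R172H/- over p53-/- it was 0.10 ± 0.059 with the muscle markers, against 0.19 without. The other markers were not used as covariates, and their part in the difference was not tested.

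Trp73 read evenly across the tumors. The mean signals of its probe sets lay at percentiles 58.8 and 56.0 of probe sets with 1 gene symbol, near the middle. Whether the signal of Trp73 stands above background was not tested. Its brighter probe set, 1452325_at, read 170, 204 and 179 in p53-/- tumors, 142, 177 and 178 in p53R172H/- tumors, and 174, 192 and 193 in p53R172H/+ tumors. Only p53R172H/- tumor 1 stood below the others, and the groups overlapped. Both p53R172H groups against p53-/- gave a log2 fold change of -0.07 ± 0.10 (interval -0.31 to 0.17, adjusted p 0.799). The other probe set, 1427697_a_at, read 179, 190 and 157 in p53-/-, 151, 173 and 148 in p53R172H/- and 149, 164 and 158 in p53R172H/+ tumors. Its log2 fold change was -0.16 ± 0.088 (interval -0.37 to 0.051, adjusted p 0.465), with an exact two-sided permutation p of 0.119. It was -0.096 without p53-/- tumor 2, -0.10 with median centring and -0.052 with the beta-actin ratio as a covariate. Beside a deleted or a wild-type second allele the means of 1427697_a_at were 157 ± 13.7 in p53R172H/- and 157 ± 7.89 in p53R172H/+ tumors (SD, n = 3), with a 95% interval of the log2 difference from -0.24 to 0.24. For 1452325_at that difference was -0.17 ± 0.12 (interval -0.46 to 0.11), which was -0.065 without p53R172H/- tumor 1 and -0.28 with the muscle markers as a covariate.

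Mdm4 was read by 4 probe sets whose fold changes differed in sign. The brightest, 1460542_s_at, whose suffix _s_at marks probes shared between transcripts, read 331, 240 and 253 in p53-/- tumors, 299, 394 and 335 in p53R172H/- tumors, and 280, 301 and 250 in p53R172H/+ tumors. The p53R172H/- tumors were highest on average, at 343 ± 48.0 against 275 ± 49.2 in p53-/- and 277 ± 25.3 in p53R172H/+ (SD, n = 3), and the groups overlapped. The log2 fold change of p53R172H/- was 0.32 ± 0.16 over p53-/- (adjusted p 0.436) and 0.30 ± 0.16 over p53R172H/+ (adjusted p 1), the latter 0.20 without p53R172H/- tumor 2.

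Probe set 1419558_at of Mdm4 read 98.9, 67.3 and 84.9 in p53-/- tumors, 126, 113 and 107 in p53R172H/- tumors, and 111, 120 and 98.9 in p53R172H/+ tumors. All p53R172H tumors lay above all p53-/- tumors, by 98.91 against 98.87 at the nearest. The difference was 1.36-fold (log2 0.44 ± 0.13 SE, interval 0.13 to 0.76), with an unadjusted p of 0.0123, an adjusted p of 0.291 (limma) and rank 1462 of 34945. The exact two-sided permutation test gave p = 0.0238, the smallest 6 against 3 tumors allow. Its signal was below 115, the median of all probe sets, on average. Without p53-/- tumor 2 the log2 fold change was 0.30 (adjusted p 0.573), and over all alternatives it ran from 0.29 to 0.57, with adjusted p from 0.195 to 1.

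Probe set 1458223_at was lower on average in p53R172H tumors, at 143, 239 and 134 in p53-/-, 145, 130 and 143 in p53R172H/- and 138, 137 and 156 in p53R172H/+ tumors. Its log2 fold change of -0.24 ± 0.19 rested on p53-/- tumor 2, without which it was 0.02. The dimmest, 1453982_at, lay between 46.1 and 61.4, with 3 of 9 values at or under the floor of 52.6. In it p53R172H/- tumors did not overlap p53R172H/+ tumors. The log2 fold change of 0.14 ± 0.057 (adjusted p 1) is set in part by the floor, since p53R172H/+ tumors 1 and 3 were raised to it, and with no floor it was 0.23 ± 0.14. Across the 9 tumors 1458223_at and 1419558_at gave r = -0.77 and rho = -0.32 (exact permutation p = 0.0964 and 0.410, adjusted 0.276 and 0.651), and r was 0.062 without p53-/- tumor 2 and p53R172H/- tumor 2. The brightest and the dimmest, 1460542_s_at and 1453982_at, gave r = 0.75 and rho = 0.76 (exact permutation p = 0.0174 and 0.0239, adjusted 0.116 and 0.229), and 0.93 without the same pair of tumors. Which of the 4 probe sets follows the Mdm4 transcript was not tested.

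**Figure D3:**
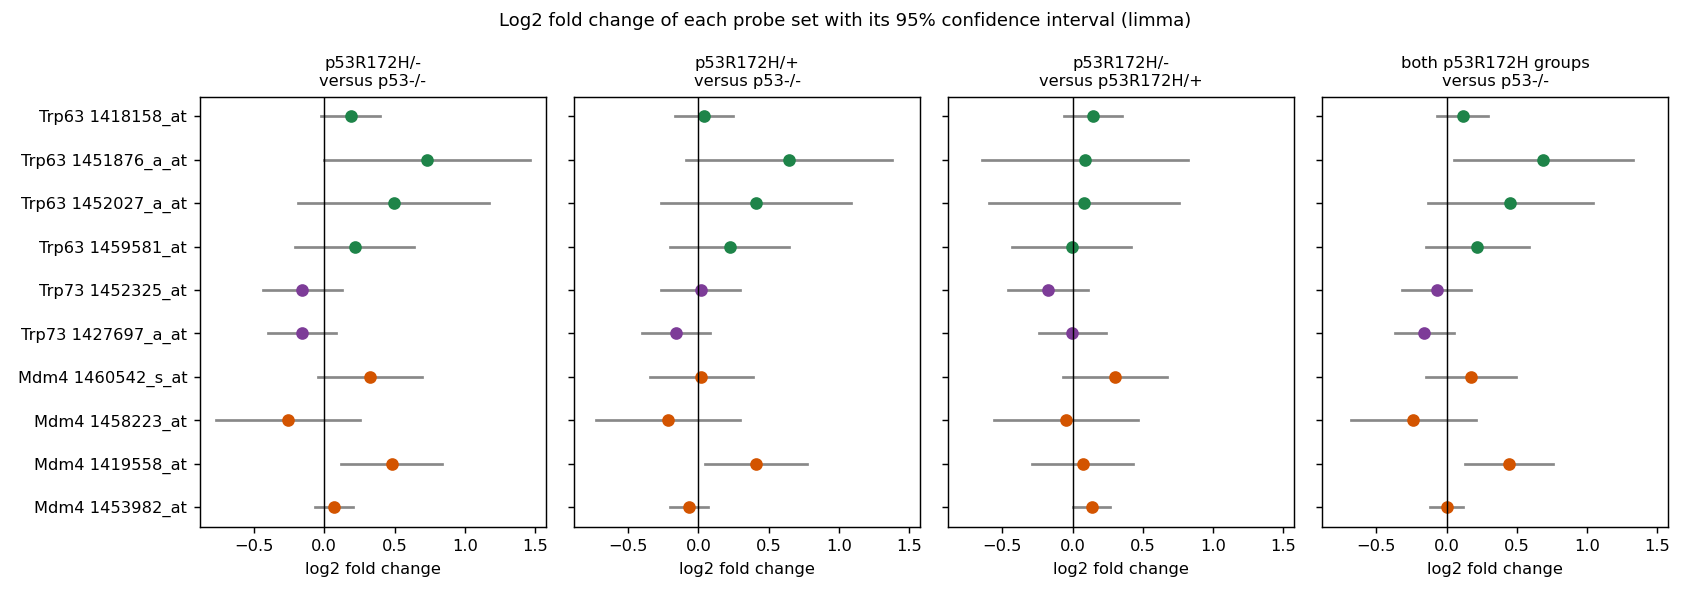
Log2 fold change of each member probe set (points) with its 95% interval (lines, limma) in the 4 comparisons. The intervals of Mdm4 1419558_at lie above 0 in the panels for p53R172H/- (0.48), p53R172H/+ (0.41) and both groups (0.44) against p53-/-. So do those of Trp63 1451876_a_at for both groups against p53-/- (0.69) and Mdm4 1453982_at for p53R172H/- against p53R172H/+ (0.14). No adjusted p was under 0.05.

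p53-/- tumor 2 was the tumor farthest from the mean of 9 tumors for 5 of the 10 probe sets, and p53R172H/- tumor 2 for 3. In p53-/- tumor 2 the deviation was -1.05 on the log2 scale for Trp63 1451876_a_at, -0.76 for Trp63 1452027_a_at and -0.59 for Mdm4 1419558_at, and 0.68 for Mdm4 1458223_at. That tumor also had the lowest beta-actin (-0.75) and Gapdh (-0.046) 5′ over 3′ log2 ratios of the 9. Its keratinocyte (12.62) and leukocyte (7.88) marker means were the lowest too. Its endothelial mean (7.5344) was level with that of p53R172H/- tumor 1 (7.5347). Its fibroblast, muscle and salivary gland means were not the lowest. Whether these bear on the deviations was not tested.

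**Figure D4:**
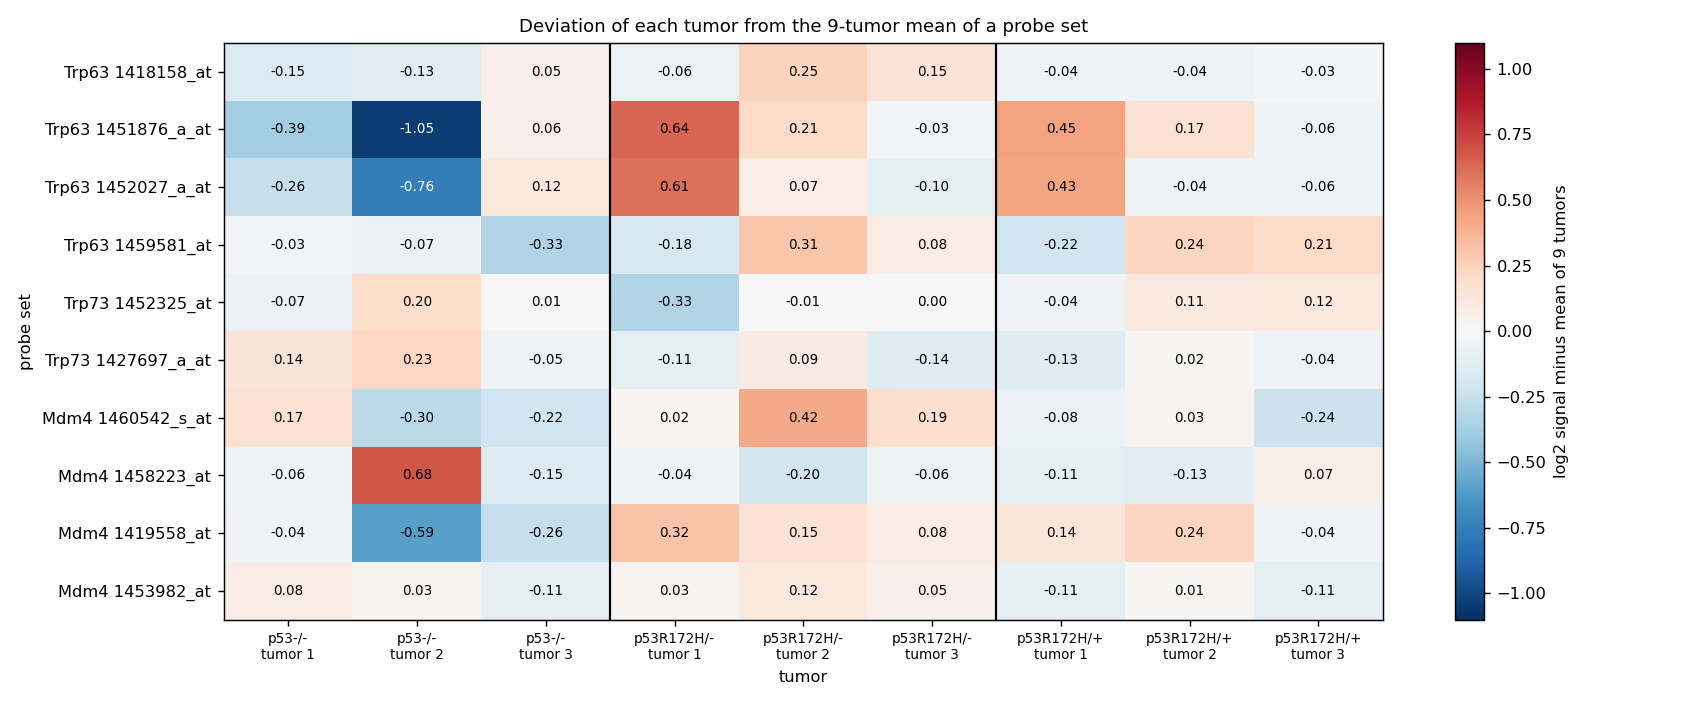
Log2 signal of each tumor (columns, by genotype) minus the mean of 9 tumors for each probe set (rows), in log2 units from blue (low) to red (high). The strongest deviations are in p53-/- tumor 2, at -1.05 for Trp63 1451876_a_at, -0.76 for Trp63 1452027_a_at and 0.68 for Mdm4 1458223_at.

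The genes around the family were set beside them as lists, with a gene read by its brightest probe set. Of 29 measured regulators and partners of p53, 15 were higher and 14 lower in both p53R172H groups than in p53-/- tumors, with a median log2 fold change of 0.0047 against -0.034 over all 18193 genes, and 0 were called. Chek2, a checkpoint kinase upstream of p53, read 93.4 ± 12.4 in p53-/-, 120.6 ± 9.73 in p53R172H/- and 138 ± 13.1 in p53R172H/+ tumors (SD, n = 3), a log2 difference of 0.47 ± 0.11 (adjusted p 0.260). The ubiquitin ligase genes Trim24 (0.38) and Rchy1 (0.26) and the deacetylase gene Sirt1 (0.36) gave smaller ones. Mdm2, the partner of Mdm4, read 600 ± 17.2, 613 ± 63.4 and 671 ± 89.3 in the same order by 1423605_a_at (log2 0.09 ± 0.099, adjusted p 0.716).

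Of 29 measured p53 target genes, 11 were higher and 18 lower in both p53R172H groups than in p53-/- (median -0.027), and 0 were called. In that comparison 7824 of all genes were higher and 10369 lower (median -0.034). This background also applies to the regulators above and to the p63 and p73 lists below. Cdkn1a, the cell cycle inhibitor p21, read 2610 ± 319 in p53-/-, 2253 ± 101 in p53R172H/- and 2622 ± 113 in p53R172H/+ tumors (log2 -0.10 ± 0.079, adjusted p 0.595). Dcxr, a carbonyl reductase gene, read 364 ± 67.8, 200 ± 16.3 and 262 ± 41.9 (log2 -0.66 ± 0.15, adjusted p 0.258), and Ephx1, the microsomal epoxide hydrolase gene, gave -0.64. The kinase gene Plk2 gave 0.39 and Trp53i13 -0.37. Of 21 measured genes linked to p63 in keratinocytes 11 were higher and 10 lower (median 0.0020), with Bnc1, a basal keratinocyte transcription factor gene, at 0.91 ± 0.12 (adjusted p 0.168), Ovol1 at 0.44, Grhl3 at 0.33 and the hemidesmosome gene Dst at -0.39. Of 8 measured genes linked to p73 in multiciliated cells 4 were higher and 4 lower (median -0.025), with Rfx3 at 0.21, Myb at 0.23, Rfx2 at -0.30 and Dnah5 at -0.35. In both of these lists 0 were called. The other comparisons called 0 genes of these lists too. Of the p53 target genes 9 were higher and 20 lower in p53R172H/- than in p53-/- tumors, beside 7912 and 10281 of all genes. In p53R172H/+ against p53-/- 13 were higher and 16 lower, beside 7863 and 10330. In p53R172H/- against p53R172H/+ 6 were higher and 23 lower, beside 8195 and 8793, and the median log2 fold change was -0.10 against 0 over all genes. The list mean per tumor was 8.785 to 8.905 in p53-/-, 8.651 to 8.783 in p53R172H/- and 8.757 to 8.903 in p53R172H/+ tumors. The p53R172H groups thus overlapped each other. Between them fibroblast markers were 2 higher and 11 lower, and muscle markers 12 higher and 0 lower. The part of tissue content in the p53 target counts was not tested.

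The genes most like each member across the 9 tumors were ranked by Pearson's r of log2 signal among 12176 genes, as a description without a test. For Trp63 1418158_at they were Cp (0.971), Gprc5b (0.966) and Csgalnact2 (0.944). For Trp73 1452325_at they were Defb4 (0.961), Clip4 (0.946) and Ppfia3 (0.945), and for Mdm4 1460542_s_at they were Mgat4a (0.980), Parp14 (0.966) and Qprt (0.965). All these values come from the same 9 arrays.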

How the data were processed

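Total RNA of 9 oral tumors was purified on columns and turned into biotin-labelled cRNA, per the labels' protocols, and measured on Affymetrix arrays. Deposited values are linear signal intensity per probe set, made by the authors with MAS5 per the submitters' processing notes; no version or scaling was given in the sources used here. The labels name no batch. Array medians were 109.1 to 123 signal units. The number of arrays limits the precision.

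Values under the 20th percentile of all values (52.56) were set to that percentile before log2 transformation, and arrays were neither normalized again nor filtered. Of 45101 probe sets, 64 controls, 932 with several symbols and 9160 with none were left out. Group means over all 9 arrays were estimated with limma 3.58.1 (R 4.3.3; lmFit, eBayes with a variance trend, two-sided, Benjamini-Hochberg over 34945 probe sets, threshold 0.05). Single values were compared by exact two-sided permutation tests, which cannot go under 0.1 for 3 against 3 tumors. The fit was tested on simulated data of both p53R172H groups against p53-/-, with 200 of 34945 probe sets changed in each of 20 sets. It called 68% of 2-fold and 92.8% of 4-fold changes, with 5.84% of calls false. These rates hold for the simulated data and do not give the chance of calling a change in a member. In the tumors the smallest adjusted p of any probe set in that comparison was 0.142 (limma).

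The members and lists were chosen with earlier results of these data known. Named genes were every member probe set, Mdm2, Cdkn1a, up to 4 genes with the smallest p of each gene list around the family for both p53R172H groups against p53-/-, and the 3 genes most like each member's brightest probe set among genes at or above the median signal. Alternatives were other normalizations, floors, filters, probe set choice, variance model, samples in the fit, tumor number as a block, marker covariates, each array left out and, added after seeing the data, the beta-actin ratio covariate.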

Additional observations from a re-analysis of the deposited data

How the results depend on the processing

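The number of members called stayed 0 in each of the 4 comparisons under every alternative. Of 840 member values under alternatives, 323 equalled the reported one to the 4 digits compared, among them those under another variance model, the filter on low values or without a tumor outside the comparison, which cannot move a fold change. Of the other 517, 46 reversed and 471 kept their direction. The causes were not tested.

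With the beta-actin covariate, added after seeing the data, Trp63 1452027_a_at was -0.021 in p53R172H/- against p53-/-, -0.145 in p53R172H/+ against p53-/- and -0.083 for both. With it Trp73 1452325_at was 0.015 in p53R172H/- against p53-/- and 0.109 for both, and Mdm4 1453982_at 0.0065 in p53R172H/+ against p53-/- and 0.071 for both. For both p53R172H groups against p53-/-, Mdm4 1453982_at was also 0.055 with quantile normalization, 0.052 with median centring and 0.00489 with the keratinocyte covariate. For p53R172H/- against p53R172H/+, Trp73 1427697_a_at was 0.00541 with quantile normalization, 0.000638 with median centring and 0.033 with the keratinocyte covariate, and Mdm4 1458223_at was 0.065 with the keratinocyte and 0.018 with the muscle covariate.

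Leaving out each tumor in turn, values that reversed ran over these ranges. For p53R172H/- against p53-/- Mdm4 1458223_at ran from -0.42 to 0.0010. For p53R172H/+ against p53-/- Trp73 1452325_at ran from -0.041 to 0.094, Mdm4 1460542_s_at from -0.069 to 0.16 and Mdm4 1458223_at from -0.37 to 0.047. For p53R172H/- against p53R172H/+ Trp63 1451876_a_at ran from -0.096 to 0.24, 1452027_a_at from -0.13 to 0.24 and 1459581_at from -0.15 to 0.12, Trp73 1427697_a_at from -0.071 to 0.041, Mdm4 1458223_at from -0.081 to 0.015 and 1419558_at from -0.0030 to 0.13. For both groups against p53-/- Trp73 1452325_at ran from -0.13 to 0.00774, Mdm4 1458223_at from -0.39 to 0.024 and 1453982_at from -0.055 to 0.040.

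The labels give the groups the same tumor numbers. Deviations of same-numbered tumors from their group means correlated from -0.438 to 0.222, and not every pair was over 0.1, so the numbers were not taken to pair the tumors. With the number as a replicate block 0 members were called in each comparison. In this balanced layout the block cannot move a fold change, so the 0.44 of Mdm4 1419558_at is fixed, and only its adjusted p (0.345, limma) is informative. Under the filters on low values Mdm4 1419558_at and 1453982_at had no value, and with 1 probe set per gene those that are not the brightest had none.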

Other observations

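The other Trp73 and Mdm4 probe sets were also set against the 5′ over 3′ ratios, after the values were seen. Trp73 1427697_a_at gave r = -0.75 and rho = -0.53 with the beta-actin ratio (exact permutation p = 0.0194 and 0.148, adjusted 0.116 and 0.460 over 54 relations) and -0.58 without p53R172H/- tumor 1 and p53-/- tumor 2. With the Gapdh ratio it gave r = -0.81 and rho = -0.70 (exact permutation p = 0.00929 and 0.0433, adjusted 0.0856 and 0.334), and -0.63 without that pair. Trp73 1452325_at gave r = -0.62 with the beta-actin and -0.625 with the Gapdh ratio (exact permutation, adjusted p 0.276 and 0.245). Without that pair these were 0.28 and 0.17. Mdm4 1419558_at gave r = 0.70 and rho = 0.75 with the beta-actin ratio (exact permutation p = 0.0306 and 0.0255, adjusted 0.150 and 0.229), and 0.29 without the same pair of tumors, on which the relation therefore rests. With the ratio as a covariate the log2 fold change of Mdm4 1419558_at for both p53R172H groups against p53-/- was 0.33 (unadjusted p 0.118).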
